A study of Rattus norvegicus with 14 samples.

Results

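Receptors for catecholamines, angiotensin II, endothelin and bradykinin were followed in cultured heart muscle cells stimulated with phenylephrine, with and without a BET bromodomain inhibitor. The genes were chosen by symbol in the platform's probe table: the adrenergic receptors Adra1a, Adra1b, Adra1d and Adrb1, the angiotensin receptor Agtr1a, the endothelin receptors Ednra and Ednrb, and the bradykinin receptors Bdkrb1 and Bdkrb2. Of these 9 genes, 7 were measured, by 10 probe sets, among 13184 genes in all. Ednra and Ednrb were not analysed here, so the endothelin system is represented only by its ligands and converting enzymes. Expression is given on the log2 scale of the deposited arrays, so a difference of 1 is a doubling. A gene with several probe sets is given by the brightest, and the dimmer ones are described beside it.

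The cells were neonatal rat ventricular myocytes, beating muscle cells isolated from Sprague-Dawley rat pups 2 days after birth, pre-plated to deplete non-myocytes and then kept without serum. Every group received either JQ1, a small molecule that blocks the bromodomains of BET proteins, or the vehicle DMSO. The 5 groups were DMSO for 90 min without phenylephrine (PE), called unstimulated here (n = 3), DMSO + PE for 6 h (n = 2), JQ1 + PE for 6 h (n = 3), DMSO + PE for 48 h (n = 3) and JQ1 + PE for 48 h (n = 3). PE was used at 100 µM, and for JQ1 the sources used here give no concentration. The treatment protocol has JQ1 or DMSO given 6 h ahead of PE, whereas the design text has PE first, so the order was not settled. There is no JQ1 group without PE, and the unstimulated cells were taken at 90 min, so PE and time in culture cannot be told apart.

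All of these receptors are seven-helix proteins that signal through G proteins. The alpha1-adrenergic receptors, the angiotensin type 1 receptor and the bradykinin receptors act mainly through Gq, which activates phospholipase C, releases calcium from internal stores and activates protein kinase C. The beta1-adrenergic receptor acts through Gs and cyclic AMP and raises heart rate and contractile force. In cultured myocytes, alpha1-adrenergic, angiotensin and endothelin signals are classical triggers of hypertrophy, and PE is itself an agonist of the alpha1 receptors. Kinases of the GRK family and arrestins switch such receptors off after agonist binding, and RGS proteins shorten the active state of the G protein.

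Promoter sequences, from RefSeq with build GRCr8, are shown for the 3 genes that fell both with PE and with JQ1 at both times. Each runs 5′ to 3′ on the gene's strand, from 250 bases before to 50 after the annotated start, and so covers the proximal promoter and the first transcribed bases. Capitals mark a match to a searched motif. The Adra1b stretch is chr10:28814298-28814597 on the minus strand, that of Adra1d chr3:139262282-139262581 on the minus strand and that of Agtr1a chr17:34435383-34435682 on the minus strand.
Adra1b: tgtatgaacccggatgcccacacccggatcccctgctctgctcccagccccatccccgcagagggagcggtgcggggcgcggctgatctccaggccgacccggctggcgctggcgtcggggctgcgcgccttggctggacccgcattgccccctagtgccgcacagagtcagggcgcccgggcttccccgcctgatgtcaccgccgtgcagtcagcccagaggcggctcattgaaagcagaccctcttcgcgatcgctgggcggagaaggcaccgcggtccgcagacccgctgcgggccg
Adra1d: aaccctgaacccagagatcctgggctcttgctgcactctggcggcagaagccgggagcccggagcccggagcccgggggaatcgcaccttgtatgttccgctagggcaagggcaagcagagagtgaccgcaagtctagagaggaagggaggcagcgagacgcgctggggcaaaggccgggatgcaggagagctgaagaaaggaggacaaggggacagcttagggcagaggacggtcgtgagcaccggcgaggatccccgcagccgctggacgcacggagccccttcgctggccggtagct
Agtr1a: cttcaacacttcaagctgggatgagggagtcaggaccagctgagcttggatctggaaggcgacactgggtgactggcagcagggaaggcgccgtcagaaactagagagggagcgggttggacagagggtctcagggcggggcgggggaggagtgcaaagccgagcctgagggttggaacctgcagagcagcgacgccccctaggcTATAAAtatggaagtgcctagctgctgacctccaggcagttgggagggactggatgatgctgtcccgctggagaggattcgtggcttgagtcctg
The motifs searched on both strands were the AP-1 motif TGANTCA, the cyclic AMP element core TGACGT, the E-box CACGTG, the GATA motif AGATAA, the TATA motif TATAAA and the CArG box by its name. They were found in 7.33%, 7.94%, 6.42%, 11.6%, 14.2% and 1.64% of 33469 rat promoters of the same length. RefSeq promoters were matched for 5 of the 7 measured genes, also Adrb1 and Bdkrb1, but for neither Adra1a nor Bdkrb2. The single match in these 5 was the TATA motif of Agtr1a, at bases 206 to 211 of its stretch, 45 bases before the start. GC content was 72.0% in Adra1b, 70.7% in Adrb1, 65.7% in Adra1d, 60.7% in Agtr1a and 50.7% in Bdkrb1, against a median of 51.7% over all promoters. The CpG count was 32 in Adra1b, 28 in Adrb1, 22 in Adra1d, 11 in Agtr1a and 4 in Bdkrb1, against a median of 7. Bdkrb1 and Bdkrb2 are neighbours on their chromosome, with 0 protein-coding genes between them in that assembly.

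Arrays of 1 group correlated at r from 0.9976 to 0.9986 over all probe sets and arrays of different groups at 0.9729 to 0.9933, so no library stood apart from its group. The cells carried their label: all 10 cardiomyocyte markers lay above the dim limit in every group, which is the 30th percentile of gene means, a log2 value of 6.23. The log2 of their summed signal stayed between 16.88 and 16.99 on all 14 arrays. PE raised 2 and lowered 4 of them at each time. JQ1 raised 1 and lowered 3 at 6 h (6 and 2 with arrays centred on their medians) and raised 5 and lowered 3 at 48 h. Of all genes, 37.2% and 44.1% passed limma's test with PE at 6 h and 48 h, and 54.3% and 59.6% with JQ1. RNA of other heart cells was present too. The fibroblast markers, 10 in number, had a log2 summed signal of 15.71 to 15.74 in unstimulated cells, and all of them were above the dim limit there. Of 9 endothelial markers, Pecam1, Tie1, Flt1, Emcn and Vwf were below the dim limit in every group.

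PE changed the receptor genes in both directions. By 6 h the bradykinin receptor gene Bdkrb2 had risen 10.9-fold, while the alpha1-adrenergic receptor genes Adra1b and Adra1d and the angiotensin receptor gene Agtr1a had fallen 2.87-fold, 1.56-fold and 1.77-fold. In limma's test across all genes, 4 of the 7 passed at 6 h (1 rose and 3 fell), where 37.2% of all genes passed (18.3% rose and 18.9% fell). At 48 h 5 passed (1 rose and 4 fell), where 44.1% of all genes passed (21.4% rose and 22.6% fell). The median log2 difference of the 7 genes was -0.14 at 6 h and -0.25 at 48 h, against 0.01 over all genes at both times. The 6 h and 48 h comparisons share the unstimulated arrays.

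JQ1 lowered receptor genes at both times. Against DMSO with PE, Adra1b, Adra1d, Agtr1a and Bdkrb2 were lower at 6 h, by 2.41-fold, 4.27-fold, 1.51-fold and 2.45-fold. Thus 4 of 7 passed at 6 h, all of them lower, a share near that of all genes, of which 54.3% passed (25.5% rose and 28.8% fell). At 48 h these 4 were lower too, Bdkrb1 fell by 0.26 and Adrb1 rose by 0.28. In all, 6 of 7 passed (1 raised and 5 lowered), where 59.6% of all genes passed (3957 raised and 3901 lowered). Of these calls, that on Bdkrb1 concerns a gene below the dim limit on every array. Adrb1 lay around that limit, with means of 6.16 without JQ1 and 6.44 with it. The DMSO + PE arrays enter these comparisons and those of PE alike. The median log2 difference of the 7 was -0.60 at 6 h and -0.38 at 48 h, with 2e-04 and 0.02 over all genes. The balance of calls over all genes moved with the scaling: 3362 raised and 3794 lowered at 6 h became 4505 and 2997 when arrays were centred on their medians. At 48 h, 3957 raised and 3901 lowered became 5207 and 3157. Under that scaling and under repeated quantile normalization, each receptor call for JQ1 against DMSO kept its direction and stayed past the threshold.

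**Figure D1:**
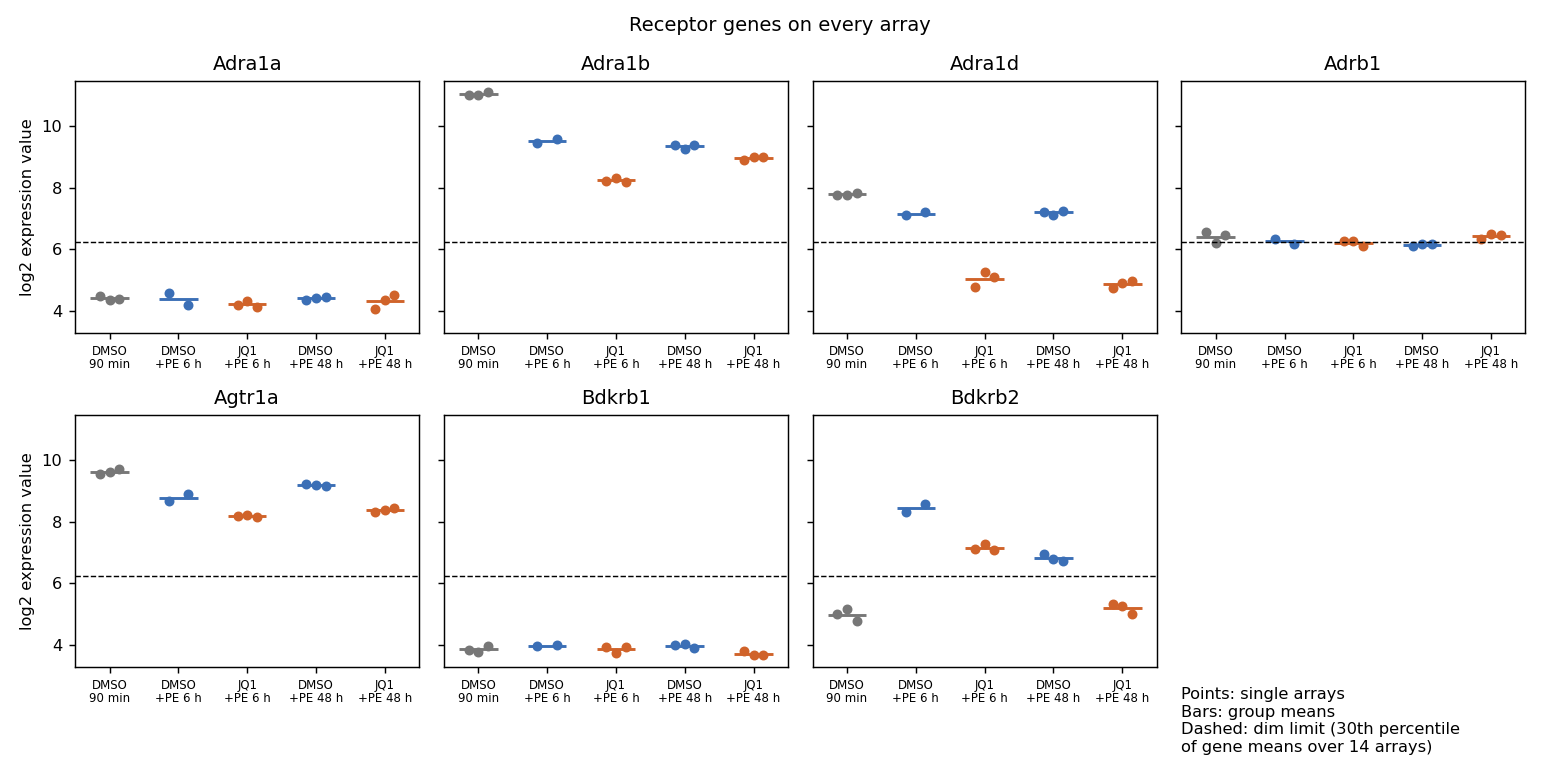
Log2 expression value of each measured receptor gene (brightest probe set) on each of the 14 arrays, by group; points are arrays, short bars are group means and the dashed line is the dim limit at 6.23. Adra1b and Agtr1a are highest in unstimulated cells, Bdkrb2 peaks with DMSO + PE at 6 h, and Adra1d drops below the dim limit in both JQ1 groups.

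Some markers of other cell types also differed between the groups. With JQ1, 8 of 10 fibroblast markers fell and 0 rose at 6 h (median log2 difference -0.39), and all 10 fell at 48 h (median -1.29). Over all genes the medians were 2e-04 and 0.02, and 54.3% and 59.6% passed. With arrays centred on their medians, 6 fibroblast markers fell and 0 rose at 6 h, and all 10 fell at 48 h. The log2 summed fibroblast signal ran from 15.63 to 15.67 with DMSO + PE at 6 h and from 15.40 to 15.42 with JQ1 + PE. At 48 h it ran from 15.45 to 15.48 and from 14.48 to 14.55. Tcf21, a fibroblast transcription factor, was the single marker of this list below the dim limit, in both JQ1 groups.

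Of 10 smooth muscle and pericyte markers, PE raised 7 and lowered 2 at 6 h and raised 6 and lowered 1 at 48 h, where 37.2% and 44.1% of all genes passed. JQ1 raised 2 and lowered 7 at 6 h and raised 0 and lowered 8 at 48 h, where 54.3% and 59.6% of all genes passed. With arrays centred, JQ1 raised 2 and lowered 6 of these markers at 6 h and raised 0 and lowered 6 at 48 h. Their log2 summed signal was 13.73 to 13.82 in unstimulated cells, 13.94 to 13.97 with DMSO + PE at 6 h, 13.84 to 13.88 with JQ1 + PE at 6 h, 13.94 to 13.96 with DMSO + PE at 48 h and 13.37 to 13.49 with JQ1 + PE at 48 h. Notch3 was below the dim limit in all groups, and Kcnj8 and Lmod1 in some. With PE, 1 fibroblast marker rose and 2 fell at 6 h, and 0 rose and 6 fell at 48 h. Of the 10 macrophage and leukocyte markers, 4 to 6 were below the dim limit in each group, among them Ptprc, C1qa and C1qb throughout. PE raised 1 of the 10 at 6 h and lowered 6 at 48 h, and with JQ1 4 fell at 6 h and 3 at 48 h. With arrays centred, PE raised 3 of them at 6 h and lowered 4 at 48 h. JQ1 then raised 1 and lowered 3 at 6 h and lowered 3 at 48 h. Their log2 summed signal was 10.66 to 10.77 in unstimulated cells, 10.72 to 10.80 and 10.42 to 10.49 at 6 h without and with JQ1, and 10.27 to 10.39 and 9.66 to 9.79 at 48 h. Of the 9 endothelial markers, PE raised 1 and lowered 1 at 6 h and raised 1 and lowered 3 at 48 h, and JQ1 lowered 3 and raised 1 at 6 h and lowered 5 and raised 1 at 48 h. With arrays centred, the 48 h counts were 1 raised and 2 lowered with PE and 2 raised and 4 lowered with JQ1. Their log2 summed signal lay between 9.49 and 9.82 on all arrays. Of 6 Schwann cell and neuron markers, PE raised 2 at 6 h and lowered 1 at 48 h. JQ1 lowered 3 and raised 1 of them at 6 h and lowered 3 at 48 h, with Sox10, Th and Stmn2 below the dim limit in every group and a log2 summed signal from 8.30 to 9.38 over the arrays. In bulk samples such as these, fewer cells of a type and less RNA per cell cannot be told apart. Agtr1a and Bdkrb2 are known to be expressed by fibroblasts and smooth muscle as well as by myocytes, and Adra1d is best known from arterial smooth muscle. The part of these other cell types in the receptor differences was not tested.

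**Figure D2:**
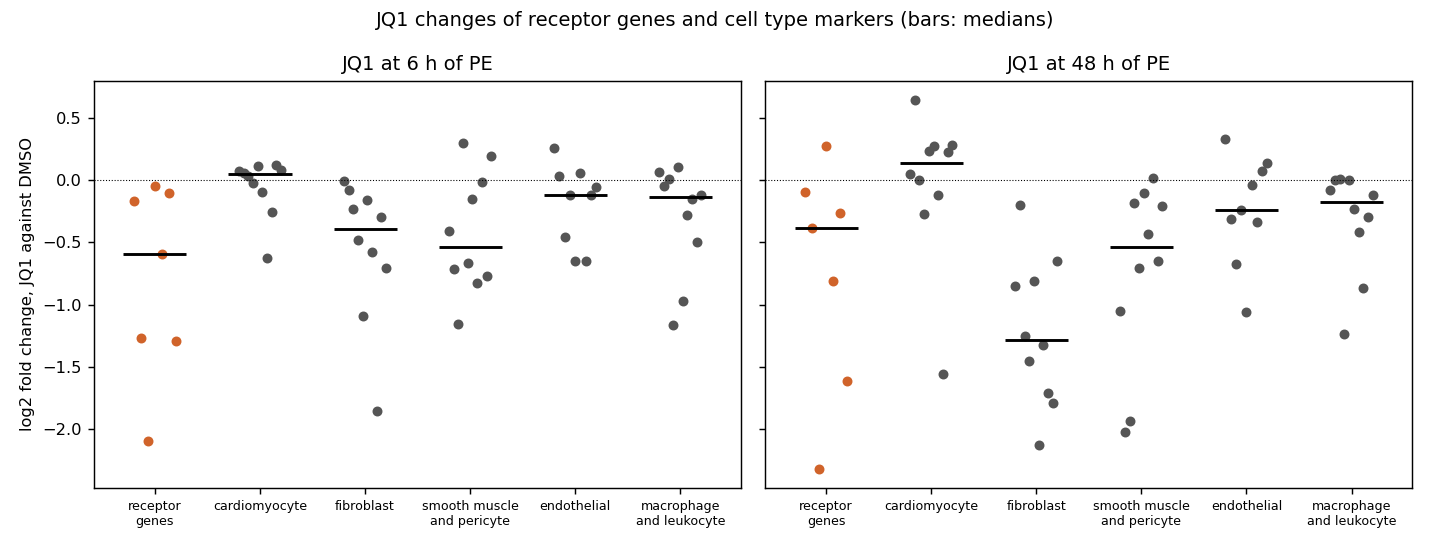
Log2 difference between JQ1 and DMSO with PE (y axis) of each receptor gene and of each gene of 5 cell type marker lists, at 6 h (left) and 48 h (right); points are genes and bars are medians. At 48 h the fibroblast markers have a median of -1.29, the cardiomyocyte markers 0.14 and the receptor genes -0.38.

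Adra1b encodes the alpha1B-adrenergic receptor, one of the Gq-coupled receptors through which PE acts. Its probe set (1368574_at) read 11.02, 10.9985 and 11.08 in unstimulated cells. With DMSO + PE at 6 h it read 9.45 and 9.57, and with JQ1 + PE at 6 h 8.22, 8.32 and 8.20. At 48 h it read 9.39, 9.26 and 9.39 without JQ1 and 8.90, 8.998 and 8.98 with it. The unstimulated arrays were the highest and the 6 h JQ1 arrays the lowest, and no 2 of the 5 groups overlapped. The DMSO + PE arrays of 6 h and 48 h came closest to each other. Groups this small can lie apart without a passing difference, as Bdkrb1 did with JQ1 at 6 h (limma adjusted p 0.245). How many of all genes lay apart in this way was not counted.

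The fall with PE was -1.52 ± 0.059 (SE) at 6 h, with a limma adjusted p of 2.4e-09, and -1.69 ± 0.052 at 48 h (3.22-fold, adjusted p 2.5e-10). Adra1b stood at rank 9 of 13184 genes from the lowest log2 difference at 6 h and at rank 11 at 48 h. Between 6 h and 48 h of PE the further difference was -0.17 ± 0.059 (adjusted p 0.0436). This small step did not pass without DMSO + PE 6 h replicate 2 (-0.11, adjusted p 0.30), without DMSO + PE 48 h replicate 2 (-0.12, 0.146), without DMSO + PE 48 h replicate 1 (-0.19, 0.0502) or when the 2 groups were fitted alone (0.125). JQ1 lowered Adra1b by -1.27 ± 0.059 at 6 h (adjusted p 2.9e-09) and by -0.38 ± 0.052 at 48 h (1.31-fold, adjusted p 2.9e-05). The effect at 48 h minus that at 6 h was 0.88 ± 0.078 (adjusted p 2.5e-06), so the JQ1 difference in Adra1b was smaller at the late time. It was the only member that passed this test, 1 of 7, where 38.8% of all genes passed (20.4% raised and 18.3% lowered). That count was 3 without DMSO + PE 6 h replicate 2, with Adrb1 (0.41, adjusted p 0.0483) and Agtr1a (-0.32, 0.00973) added. It was 2 without JQ1 + PE 6 h replicate 1 (Adra1d, -0.37, 0.0173) or without JQ1 + PE 48 h replicate 1 (Adrb1, 0.37, 0.0489).

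Adra1d encodes the alpha1D-adrenergic receptor, a related Gq-coupled receptor best known from arterial smooth muscle. Its probe set (1368534_at) read 7.75, 7.77 and 7.84 in unstimulated cells, 7.10 and 7.20 with DMSO + PE at 6 h, and 7.22, 7.12 and 7.25 with DMSO + PE at 48 h. With JQ1 + PE it read 4.78, 5.28 and 5.11 at 6 h and 4.75, 4.90 and 4.98 at 48 h. All 6 JQ1 arrays were below the dim limit and all 8 DMSO arrays above it, with no overlap. Both PE groups without JQ1 lay between these and the unstimulated arrays, and they overlapped each other.

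PE lowered Adra1d by -0.64 ± 0.115 at 6 h (adjusted p 7.7e-04) and by -0.59 ± 0.102 at 48 h (1.50-fold, adjusted p 4.8e-04). The 2 times differed by 0.05 ± 0.115 (adjusted p 0.794, 95% interval from -0.20 to 0.30). JQ1 lowered it by -2.09 ± 0.115 at 6 h (adjusted p 1.2e-08) and by -2.32 ± 0.102 at 48 h (5.00-fold, adjusted p 8.0e-10). These were rank 50 and rank 113 of 13184 from the lowest log2 difference. Since the JQ1 groups were that dim, the folds are differences of measured values, and no detection call was used here to bound them. The effect at 48 h minus that at 6 h was -0.23 ± 0.154 (adjusted p 0.278).

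Adra1a encodes the alpha1A-adrenergic receptor, which in the rodent heart is found in a subset of myocytes. Its probe set (1369797_at) read from 4.08 to 4.59 over the 14 arrays, below the dim limit on each. The group means were 4.42 ± 0.067 (SD, n = 3) in unstimulated cells, 4.39 ± 0.28 (n = 2) and 4.42 ± 0.052 (n = 3) with DMSO + PE at 6 h and 48 h, and 4.22 ± 0.10 (n = 3) and 4.33 ± 0.23 (n = 3) with JQ1 + PE. The arrays of JQ1 + PE at 6 h (4.12 to 4.33) lay below those of unstimulated cells (4.36 to 4.49) and of DMSO + PE at 48 h (4.37 to 4.47), and the other groups overlapped. The differences were -0.03 ± 0.128 for PE at 6 h (adjusted p 0.90, 95% interval from -0.31 to 0.25), 0.01 ± 0.115 for PE at 48 h (0.959), -0.17 ± 0.128 for JQ1 at 6 h (0.306) and -0.09 ± 0.115 for JQ1 at 48 h (0.513). Without DMSO + PE 6 h replicate 2 the JQ1 difference at 6 h was -0.37 with an adjusted p of 0.0449. JQ1 + PE at 6 h differed from unstimulated cells by -0.19 ± 0.115 (adjusted p 0.163), which passed with only those groups in the model (adjusted p 0.0298).

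Adrb1 encodes the beta1-adrenergic receptor, the main Gs-coupled receptor for noradrenaline in ventricular myocytes. Its probe set (1369806_at) read 6.56, 6.20 and 6.45 in unstimulated cells, 6.35 and 6.18 with DMSO + PE at 6 h, and 6.29, 6.27 and 6.10 with JQ1 + PE at 6 h. At 48 h it read 6.12, 6.17 and 6.19 without JQ1 and 6.34, 6.49 and 6.48 with it. All values sat around the dim limit, and most groups overlapped. The 3 arrays of DMSO + PE at 48 h lay below those of unstimulated cells, and the JQ1 + PE arrays of 48 h lay above those of DMSO + PE at 48 h and of JQ1 + PE at 6 h.

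The difference for PE was -0.14 ± 0.095 at 6 h (adjusted p 0.303) and -0.25 ± 0.085 at 48 h (1.19-fold, adjusted p 0.0325). The call at 48 h did not survive leaving out unstimulated replicate 1 (adjusted p 0.141) or 3 (0.0984), or DMSO + PE 48 h replicate 1 (0.0924), 2 (0.0631) or 3 (0.0582), nor centring arrays on their medians (0.0615) or fitting only the 2 groups (0.0526). Without unstimulated replicate 2 the difference at 6 h was -0.24 and passed (adjusted p 0.0371). JQ1 at 48 h gave 0.28 ± 0.085 (1.21-fold, adjusted p 0.0125), a rise that kept its call in every alternative tried, whereas JQ1 at 6 h gave -0.05 ± 0.095 (adjusted p 0.726). The difference between these 2 effects was 0.32 ± 0.127 and did not pass (adjusted p 0.0635). JQ1 + PE at 48 h and unstimulated cells differed by 0.03 ± 0.085 (adjusted p 0.77).

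Agtr1a encodes the angiotensin type 1a receptor, the principal receptor for angiotensin II in the rat heart. Its brightest probe set (1384240_at) read 9.53, 9.60 and 9.69 in unstimulated cells. It read 8.67 and 8.88 with DMSO + PE at 6 h and 9.20, 9.17 and 9.17 at 48 h. With JQ1 + PE it read 8.19, 8.21 and 8.14 at 6 h and 8.31, 8.37 and 8.43 at 48 h. No 2 of the 5 groups overlapped, with the unstimulated arrays highest, then DMSO + PE at 48 h, DMSO + PE at 6 h, JQ1 + PE at 48 h and JQ1 + PE at 6 h.

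PE lowered Agtr1a by -0.83 ± 0.064 at 6 h (adjusted p 7.7e-07) and by -0.42 ± 0.057 at 48 h (1.34-fold, adjusted p 6.3e-05). From 6 h to 48 h of PE it rose again by 0.40 ± 0.064 (1.32-fold, adjusted p 3.8e-04). JQ1 lowered it by -0.60 ± 0.064 at 6 h (adjusted p 5.0e-06) and by -0.81 ± 0.057 at 48 h (1.75-fold, adjusted p 6.6e-08), and the effect at 48 h minus that at 6 h was -0.21 ± 0.086 (adjusted p 0.0712). This last difference passed under repeated quantile normalization (-0.23, adjusted p 0.0311), centring (-0.21, 0.0496), an intensity trend (0.0452) and without dim genes (0.0465).

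The dimmer Agtr1a probe set (1369291_at) read 7.38, 7.37 and 7.26 in unstimulated cells, 6.37 and 6.63 with DMSO + PE at 6 h and 6.78, 6.62 and 6.88 at 48 h. With JQ1 + PE it ran from 6.24 to 6.33 at 6 h and from 6.13 to 6.47 at 48 h. It fell with PE at 6 h (-0.84, adjusted p 6.8e-05) and at 48 h (-0.57, 4.2e-04) and with JQ1 at 48 h (-0.49, 6.7e-04). The difference for JQ1 at 6 h was -0.23 and did not pass (adjusted p 0.105), nor did the one from 6 h to 48 h of PE (0.26, 0.0889). Rats carry a close paralogue, Agtr1b, and the sources used here do not say how far the Agtr1a probe sets separate the pair. The probe set assigned to Agtr1b had group means between 3.80 and 3.85, below the dim limit.

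Bdkrb2 encodes the bradykinin B2 receptor, the constitutive Gq-coupled receptor for bradykinin. Its brightest probe set (1370650_s_at, the suffix marking a set that can match more than 1 transcript) read 4.99, 5.17 and 4.78 in unstimulated cells, below the dim limit. With DMSO + PE it read 8.30 and 8.57 at 6 h and 6.95, 6.79 and 6.72 at 48 h. With JQ1 + PE it read 7.10, 7.26 and 7.07 at 6 h and 5.34, 5.27 and 5.01 at 48 h. The DMSO + PE arrays of 6 h were the highest, followed by JQ1 + PE at 6 h and DMSO + PE at 48 h, with no overlap among these groups, whereas JQ1 + PE at 48 h overlapped with unstimulated cells.

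The rise of the brightest probe set with PE at 6 h was 3.45 ± 0.128 (adjusted p 1.7e-09). It was the highest log2 difference of the 13184 genes, measured from a dim level. At 48 h the rise was 1.84 ± 0.114 (3.58-fold, adjusted p 6.7e-08), rank 14 from the highest. From 6 h to 48 h of PE, Bdkrb2 fell by 1.61 ± 0.128 (3.06-fold, adjusted p 1.2e-06). In that comparison 3 of the 7 genes passed, of which Agtr1a rose and Bdkrb2 and Adra1b fell, where 34.6% of all genes passed (16.3% rose and 18.4% fell). JQ1 lowered Bdkrb2 by -1.29 ± 0.128 at 6 h (adjusted p 2.3e-06) and by -1.61 ± 0.114 at 48 h (3.06-fold, adjusted p 6.4e-08), and these effects differed by -0.32 ± 0.171 (adjusted p 0.169).

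The probe sets of Bdkrb2 disagreed in size. Their unstimulated means were close, at 4.98, 4.93 and 4.79, so the choice of the brightest over all arrays favoured the one that rose most. The folds and ranks given above rest on that choice. With the mean of all probe sets, the rise with PE was 1.88 at 6 h and 1.02 at 48 h. The second (1370649_at) read 4.81, 5.03 and 4.96 in unstimulated cells, 6.83 and 7.10 with DMSO + PE at 6 h, 6.24, 6.29 and 6.22 with JQ1 + PE at 6 h, 6.14, 5.97 and 5.78 with DMSO + PE at 48 h and 4.95, 5.34 and 5.26 with JQ1 + PE at 48 h. It rose with PE by 2.03 at 6 h (adjusted p 1.3e-07) and 1.03 at 48 h (1.2e-05) and fell with JQ1 (-0.72 and -0.78, adjusted p 3.7e-04 and 5.6e-05). The third (1371120_s_at) stayed between 4.75 and 5.18 on all arrays, below the dim limit, and passed in none of the PE or JQ1 tests, with 0.16 for PE at 6 h (adjusted p 0.193) and 0.02 for JQ1 at 6 h (0.865).

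**Figure D3:**
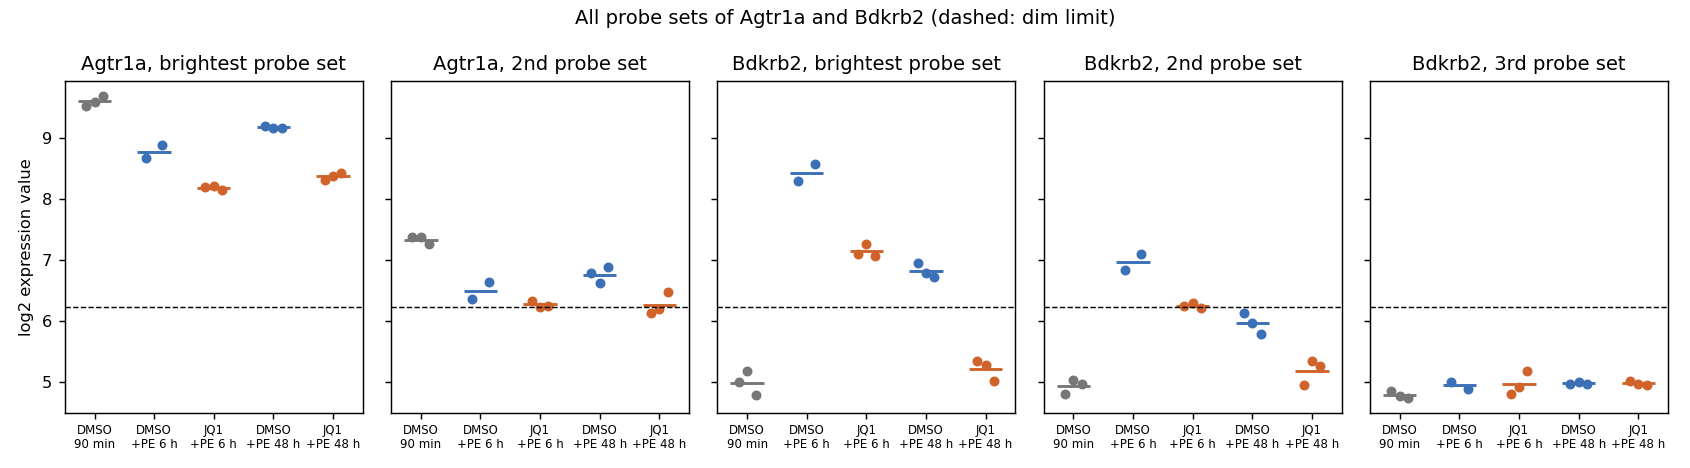
Log2 expression value on each array for each probe set of Agtr1a and Bdkrb2, the members with more than 1, by group; points are arrays, bars are group means and the dashed line is the dim limit at 6.23. Both Agtr1a probe sets are highest in unstimulated cells, both brighter Bdkrb2 probe sets are highest with DMSO + PE at 6 h, and the third Bdkrb2 probe set stays between 4.75 and 5.18.

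Bdkrb1 encodes the bradykinin B1 receptor, which is normally scarce and induced by inflammation. Its probe set (1369807_at) read from 3.66 to 4.03 over the 14 arrays, below the dim limit on each. Group means were 3.87 ± 0.099 (SD, n = 3) in unstimulated cells, 3.98 ± 0.015 (n = 2) with DMSO + PE at 6 h, 3.88 ± 0.10 (n = 3) with JQ1 + PE at 6 h, 3.98 ± 0.061 (n = 3) with DMSO + PE at 48 h and 3.72 ± 0.079 (n = 3) with JQ1 + PE at 48 h. The 3 JQ1 + PE arrays of 48 h, at 3.81, 3.66 and 3.68, lay below the DMSO + PE arrays at 3.997, 4.03 and 3.91. That difference was -0.26 ± 0.064 (1.20-fold, adjusted p 0.00324). PE gave 0.11 ± 0.072 at 6 h (adjusted p 0.26) and 0.11 ± 0.064 at 48 h (0.185), and JQ1 gave -0.11 ± 0.072 at 6 h (0.245). Its neighbour Bdkrb2 thus rose with PE while the difference of Bdkrb1 did not pass, and the gap between the 2 genes' changes was not tested.

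**Figure D4:**
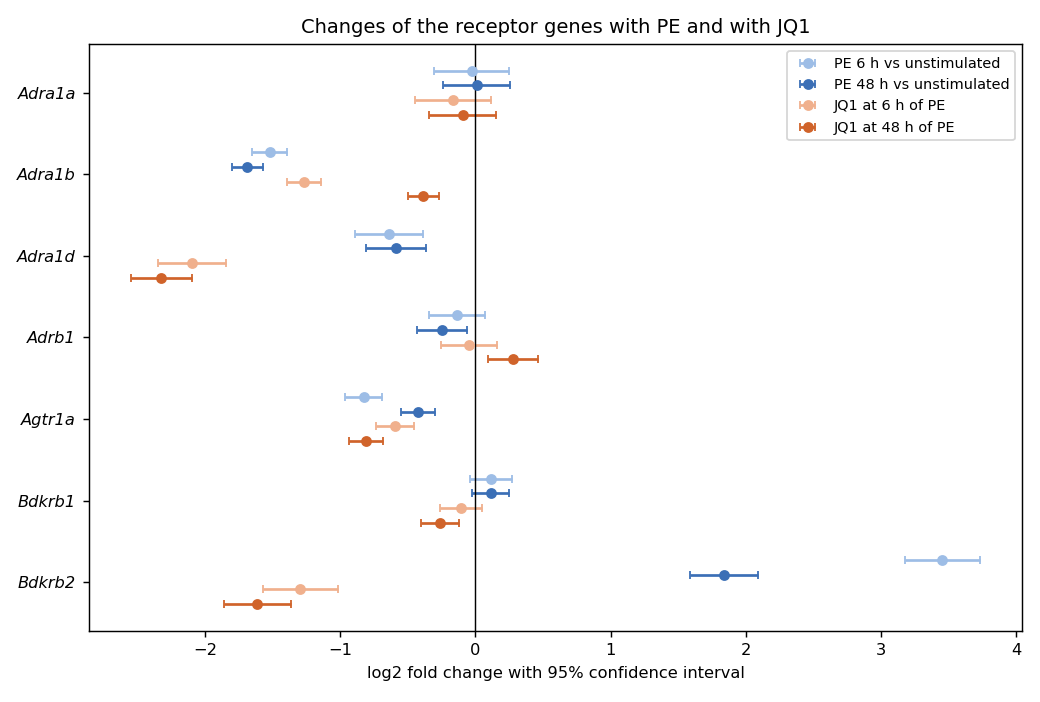
Log2 difference (x axis) of each measured receptor gene for PE against unstimulated cells and for JQ1 against DMSO with PE, at 6 h and 48 h, with bars for the 95% interval of the limma fit. Bdkrb2 reaches 3.45 with PE at 6 h, and Adra1d reaches -2.32 with JQ1 at 48 h.

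Set against unstimulated cells, JQ1 + PE left Adra1b, Adra1d and Agtr1a lower than PE alone did. At 6 h Adra1b was 6.90-fold lower (-2.79 ± 0.052, adjusted p 1.0e-12), Adra1d 6.65-fold lower (-2.73 ± 0.102, 1.6e-10) and Agtr1a 2.68-fold lower (-1.42 ± 0.057, 3.2e-10), while Bdkrb2 was 4.46-fold higher (2.16 ± 0.114, 3.8e-09). This was 4 of 7, where 62.6% of all genes passed (30.9% raised and 31.7% lowered). At 48 h Adra1b was 4.21-fold lower (-2.07 ± 0.052, 8.1e-12), Adra1d 7.52-fold lower (-2.91 ± 0.102, 1.2e-10) and Agtr1a 2.35-fold lower (-1.23 ± 0.057, 1.5e-09). At that time 3 of 7 passed, where 60.8% of all genes passed (31.6% raised and 29.2% lowered). Centring the arrays turned 4071 raised and 4185 lowered genes at 6 h into 5431 and 3446, and 4171 and 3846 at 48 h into 5802 and 3059, with a shift of the median of all genes of 0.10 at 48 h. These comparisons share the unstimulated arrays with those of PE.

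Bdkrb2 with JQ1 + PE at 48 h differed from unstimulated cells by 0.23 ± 0.114 (adjusted p 0.108, 95% interval from -0.02 to 0.47), so a remaining rise was not shown at this number of arrays. It passed when arrays were centred (0.33, adjusted p 0.0183) and with the mean of all probe sets (0.22, 0.0084). Without unstimulated replicate 2, both Bdkrb2 (0.32, adjusted p 0.0355) and Bdkrb1 (-0.19, 0.0377) passed, which made 5 of 7. Without JQ1 + PE 48 h replicate 3 Bdkrb2 passed (0.32, 0.0303), and without JQ1 + PE 48 h replicate 1 Bdkrb1 did (-0.19, 0.0292). Without unstimulated replicate 2, Adrb1 passed at 6 h (-0.28, 0.00482).

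Over the 14 arrays, Agtr1a followed Adra1d (Pearson r = 0.93) and Adra1b (0.92), and Adra1b followed Adra1d (0.83), as a description of arrays that fall into 5 groups. Bdkrb2 correlated with Adra1d at 0.03 and with Agtr1a at -0.31. The genes most like each member were sought among 2126 other genes that exceeded the dim limit in some group and spanned at least 1 log2 unit over the group means. For Adra1b these were Ech1 (r = 0.995), a fatty acid oxidation enzyme, Rgma (0.988), a guidance molecule, and Irx3 (0.979), a homeobox transcription factor of the conduction system. For Adra1d they were Syt17 (0.996), a synaptotagmin, Slc35a1 (0.993), the transporter of CMP-sialic acid, and Tmem17 (0.992), a protein of the ciliary transition zone. For Agtr1a they were Nxnl2 (0.990), Ptprr (0.987), a tyrosine phosphatase, and Mppe1 (0.985). For Bdkrb2 they were Sfrp1 (0.979), a secreted Wnt antagonist, Areg (0.963), a ligand of the EGF receptor, and Pard6b (0.958), a polarity protein. Areg, like Bdkrb2, averaged lowest in unstimulated cells (5.77) and highest with DMSO + PE at 6 h (8.11). For Adrb1 the highest were Nme3 (0.741), Emc9 (0.727) and Vamp1 (0.722). Its group means ran only from 6.16 to 6.44, around the dim limit. Array noise and the required span of 1 log2 unit limit that search, so these lower correlations cannot be read as a trait of Adrb1.

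The lists of related genes that follow are read against the share of all genes that passed. It was 37.2% for PE at 6 h, 44.1% for PE at 48 h, 54.3% for JQ1 at 6 h and 59.6% for JQ1 at 48 h. A list gene described at only 1 time was named for that comparison, and its other time may hold a change as well. Related receptors were mostly dim. Of 9 listed, 8 were measured, and Adra2a, Adra2b, Adra2c, Adrb3, Agtr1b, Agtr2 and Mas1 were below the dim limit in unstimulated cells. PE raised 2 and lowered 0 at 6 h and raised 1 and lowered 1 at 48 h, and JQ1 raised 1 and 2 and lowered none of them at the 2 times. The median log2 differences were 0.10, 0.08, 0.03 and 0.04 in that order, against 0.01, 0.01, 2e-04 and 0.02 over all genes. The bright member, Atp6ap2, the prorenin receptor, rose with PE by 0.23 ± 0.044 at 6 h (adjusted p 0.00117) and 0.31 ± 0.040 at 48 h (3.8e-05), and with JQ1 by 0.15 ± 0.044 at 6 h (0.0139) and 0.23 ± 0.040 at 48 h (2.0e-04). The remaining calls were on dim genes: Adra2a, an alpha2-adrenergic receptor, with PE at 6 h (0.24 ± 0.083, 0.0393, lost under repeated quantile normalization), and Mas1, the receptor for angiotensin-(1-7), with PE at 48 h (-0.21 ± 0.048, 0.00283) and with JQ1 at 48 h (0.30 ± 0.048, 1.3e-04).

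Among ligands and the enzymes that make or degrade them, 13 of 18 were measured. PE raised 3 and lowered 1 at 6 h and raised 2 and lowered 1 at 48 h, with medians of 0.06 and 8e-04. JQ1 raised 1 and lowered 3 at 6 h and raised 0 and lowered 4 at 48 h, with medians of 0.07 and -0.08. Enpep, aminopeptidase A, which converts angiotensin II to angiotensin III, rose with PE (0.45 ± 0.057 at 6 h, adjusted p 5.5e-05, and 0.60 ± 0.051 at 48 h, 1.1e-06). It fell with JQ1 (-0.72 ± 0.057, 3.2e-07, and -1.42 ± 0.051, 1.2e-10). Mme, neprilysin, which degrades bradykinin and angiotensins, fell with PE (-0.25 ± 0.072, 0.0156, and -0.63 ± 0.064, 6.0e-06) and with JQ1 (-0.55 ± 0.072, 2.8e-05, and -1.19 ± 0.064, 4.9e-09). Prcp, a carboxypeptidase that cleaves angiotensin II, rose with PE at 6 h (0.44 ± 0.059, 7.8e-05). Ece1, an endothelin-converting enzyme, rose with PE at 48 h (0.12 ± 0.044, 0.0368). Agt, the angiotensin precursor, was dim and rose with JQ1 at 6 h (0.25 ± 0.098, 0.0433). The log2 JQ1 effect on Agt at 48 h was -0.12.

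Edn1, the precursor of endothelin-1, was lower with JQ1 + PE at 6 h than in unstimulated cells (-0.77 ± 0.110, adjusted p 4.2e-05), the comparison for which the rule for named genes takes it. Its other values are given because the endothelin receptors were not analysed here, a choice made after they were seen. It averaged 6.70 in unstimulated cells, 6.76 and 6.68 with DMSO + PE at 6 h and 48 h, and 5.93 and 5.79 with JQ1 + PE. PE gave 0.06 ± 0.122 at 6 h (adjusted p 0.738) and -0.01 ± 0.110 at 48 h (0.936). JQ1 lowered it by -0.83 ± 0.122 at 6 h (7.7e-05) and by -0.89 ± 0.110 at 48 h (1.2e-05), to below the dim limit.

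Of the genes that make, transport or degrade catecholamines, 9 of 10 were measured. PE raised 1 and lowered 2 at 6 h and raised 1 and lowered 0 at 48 h (medians 0.08 and 0.06). JQ1 raised 1 and lowered 2 at 6 h and raised 2 and lowered 1 at 48 h (medians 0.01 and 0.06). Dbh, dopamine beta-hydroxylase, which makes noradrenaline and is also on the neuron marker list, rose with PE at 6 h (0.38 ± 0.121, adjusted p 0.0257). It fell with JQ1 by -1.69 ± 0.121 at 6 h (1.2e-07) and -1.86 ± 0.108 at 48 h (9.8e-09), from 7.69 and 7.57 to below the dim limit. Ddc, which makes dopamine, fell with PE at 6 h (-0.21 ± 0.044, 0.00226) and with JQ1 at 6 h (-0.48 ± 0.044, 1.3e-06), and rose with JQ1 at 48 h (0.20 ± 0.040, 6.8e-04). Maoa, monoamine oxidase A, fell with PE at 6 h (-0.32 ± 0.048, 1.7e-04), rose with PE at 48 h (0.46 ± 0.043, 2.4e-06) and rose with JQ1 at 48 h (0.26 ± 0.043, 1.8e-04). Pnmt, which makes adrenaline, was dim and rose with JQ1 at 6 h (0.68 ± 0.167, 0.00377).

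Downstream of Gq, 21 of 23 listed genes were measured. PE raised 2 and lowered 4 at 6 h and raised 4 and lowered 6 at 48 h (medians 0.01 and -0.05), and JQ1 raised 6 and lowered 3 at 6 h and raised 7 and lowered 6 at 48 h (medians 0.11 and -0.09). Prkca, the classical protein kinase C alpha, rose with PE by 0.57 ± 0.061 at 6 h (adjusted p 1.2e-05) and 0.63 ± 0.055 at 48 h (1.3e-06), and with JQ1 at 6 h by 1.58 ± 0.061 (2.98-fold, 6.9e-10). Prkce, protein kinase C epsilon, fell with PE (-0.81 ± 0.087, 1.2e-05, and -0.33 ± 0.078, 0.00375). Plcb4, a phospholipase C beta, fell with PE at 6 h (-0.38 ± 0.049, 5.6e-05) and with JQ1 at 6 h (-0.57 ± 0.049, 7.2e-07).

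Trpc6, a cation channel opened by diacylglycerol, fell with JQ1 by -2.10 ± 0.128 at 6 h (4.30-fold, adjusted p 3.1e-08) and -2.96 ± 0.115 at 48 h (7.77-fold, 2.4e-10), from 7.57 and 7.18 to below the dim limit. Trpc1, a related channel, rose with PE at 48 h (0.53 ± 0.053, 4.6e-06). Itpr1, an inositol trisphosphate receptor that releases stored calcium, rose with JQ1 (0.72 ± 0.056, 3.0e-07, and 0.56 ± 0.050, 6.0e-07), whereas Itpr3 fell at 48 h (-0.40 ± 0.061, 8.0e-05). Among diacylglycerol kinases, which end the lipid signal, Dgka rose with PE at 6 h (0.44 ± 0.046, 1.1e-05) and with JQ1 at 48 h (0.52 ± 0.041, 1.7e-07), and Dgkz fell with PE at 48 h (-0.28 ± 0.053, 8.1e-04).

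Of the Gs, Gi and cyclic AMP genes, 20 of 22 were measured. PE raised 5 and lowered 4 at 6 h and raised 3 and lowered 4 at 48 h (medians -0.02 and 0.03). JQ1 raised 3 and lowered 11 at 6 h and raised 7 and lowered 5 at 48 h (medians -0.13 and 0.06), and the 6 h count became 5 raised and 6 lowered when arrays were centred. Pde4b, a cyclic AMP phosphodiesterase, rose with PE (1.05 ± 0.063 at 6 h, adjusted p 7.9e-08, and 0.60 ± 0.056 at 48 h, 2.4e-06). It fell with JQ1 at 6 h (-1.34 ± 0.063, 3.2e-09), and its JQ1 effect at 48 h was -0.40. Rapgef4, the cyclic AMP sensor Epac2, rose with PE (1.12 ± 0.159, 1.2e-04, and 1.61 ± 0.142, 1.6e-06) and fell with JQ1 (-1.76 ± 0.159, 1.0e-06, and -2.65 ± 0.142, 4.8e-09), though it was above the dim limit only with DMSO + PE at 48 h. Gnai1, an inhibitory G protein alpha subunit, rose with JQ1 (1.61 ± 0.151, 1.5e-06, and 1.11 ± 0.135, 1.1e-05). Gnao1, a Go alpha subunit, fell with PE at 6 h (-0.45 ± 0.061, 8.4e-05) and with JQ1 at 48 h (-0.67 ± 0.055, 2.3e-07).

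Pde4a, another phosphodiesterase, fell with PE at both times (-0.36 ± 0.067, adjusted p 0.00108, and -0.38 ± 0.060, 2.5e-04). Of the adenylyl cyclases, which make cyclic AMP, Adcy6 fell with PE at 48 h (-0.22 ± 0.041, 9.4e-04) and Adcy5 rose with JQ1 at 48 h (0.40 ± 0.057, 4.2e-05). Prkar2a, a regulatory subunit of protein kinase A, rose with JQ1 at 6 h (0.26 ± 0.055, 0.00129).

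Of the genes that dampen receptor signals, 12 of 13 were measured. PE raised 4 and lowered 2 at 6 h and raised 6 and lowered 3 at 48 h (medians 0.15 and 0.16), and JQ1 raised 3 and lowered 5 at 6 h and raised 2 and lowered 7 at 48 h (medians -0.03 and -0.21). Of all genes, 37.2% and 44.1% passed with PE and 54.3% and 59.6% with JQ1. Rgs2, which limits signals through Gq, rose with PE by 2.39 ± 0.062 at 6 h (5.25-fold, adjusted p 1.7e-10) and by 0.63 ± 0.055 at 48 h (1.6e-06) and fell with JQ1 at 6 h (-1.23 ± 0.062, 6.1e-09), from 12.58 to 11.35, still above the 10.18 of unstimulated cells. The log2 JQ1 effect on Rgs2 at 48 h was -0.94. Rgs3 fell with JQ1 at 6 h (-1.66 ± 0.058, 2.8e-10) and 48 h (-2.06 ± 0.052, 4.18-fold, 6.1e-12). For Rgs4 the JQ1 effect was -1.30 at 6 h and -1.83 ± 0.062 at 48 h (3.57-fold, 7.1e-11). Rgs5, a dim gene, rose with PE at 48 h (0.53 ± 0.077, 1.3e-04). Grk5, a receptor kinase, rose with PE at 6 h (0.59 ± 0.045, 5.6e-07) and with JQ1 at both times (0.48 ± 0.045, 1.2e-06, and 0.27 ± 0.040, 6.1e-05). Grk4 fell with PE at 6 h (-0.26 ± 0.064, 0.0071). Arrb2, beta-arrestin 2, fell with PE (-0.36 ± 0.068, 0.00104, and -0.18 ± 0.061, 0.0302) and rose with JQ1 (0.54 ± 0.068, 1.9e-05, and 0.94 ± 0.061, 2.7e-08), and was above the dim limit only with JQ1 + PE at 48 h. Agtrap, a protein that binds the angiotensin type 1 receptor and promotes its internalization, fell with PE at 48 h (-0.21 ± 0.080, 0.0459).

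All 23 of the other listed Gq-coupled receptors were measured. PE raised 4 and lowered 2 at 6 h and raised 5 and lowered 4 at 48 h (medians 0.06 and 0.02), and JQ1 raised 3 and lowered 11 at 6 h and raised 0 and lowered 11 at 48 h (medians -0.19 and -0.23). These JQ1 counts stand against 54.3% and 59.6% of all genes, and the PE counts against 37.2% and 44.1%. With arrays centred, the JQ1 counts were 3 raised and 9 lowered at 6 h and 3 raised and 7 lowered at 48 h. Ptgfr, the prostaglandin F receptor, fell with PE (-1.05 ± 0.061, adjusted p 6.0e-08, and -0.84 ± 0.054, 9.5e-08). Lpar1, a lysophosphatidic acid receptor, fell with PE at 6 h (-0.87 ± 0.070, 1.1e-06) and with JQ1 at 6 h (-1.22 ± 0.070, 1.9e-08). S1pr3, a sphingosine-1-phosphate receptor, rose with PE at 6 h (0.68 ± 0.070, 8.9e-06), fell with PE at 48 h (-0.52 ± 0.062, 2.2e-05) and fell with JQ1 by -1.65 ± 0.070 at 6 h (1.4e-09) and -2.23 ± 0.062 at 48 h (1.4e-11).

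S1pr2, its relative, rose with PE at 6 h (0.30 ± 0.070, adjusted p 0.00466). The log2 JQ1 effect on S1pr2 was -1.06 at 6 h and -0.77 at 48 h. The purine receptor P2ry6 fell with JQ1 at 48 h (-1.22 ± 0.094, 1.4e-07), and its JQ1 effect at 6 h was -0.80. The dim P2ry1 rose with PE at 48 h (0.44 ± 0.097, 0.00281) and with JQ1 at 6 h (0.44 ± 0.109, 0.00426). Among protease-activated receptors, the dim F2rl1 rose with PE at 48 h (0.40 ± 0.098, 0.00519) and F2r, the thrombin receptor, with JQ1 at 6 h (0.18 ± 0.044, 0.00382). The log2 JQ1 effects at 48 h had the other sign, at -0.25 on P2ry1 and -0.16 on F2r.

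**Figure D5:**
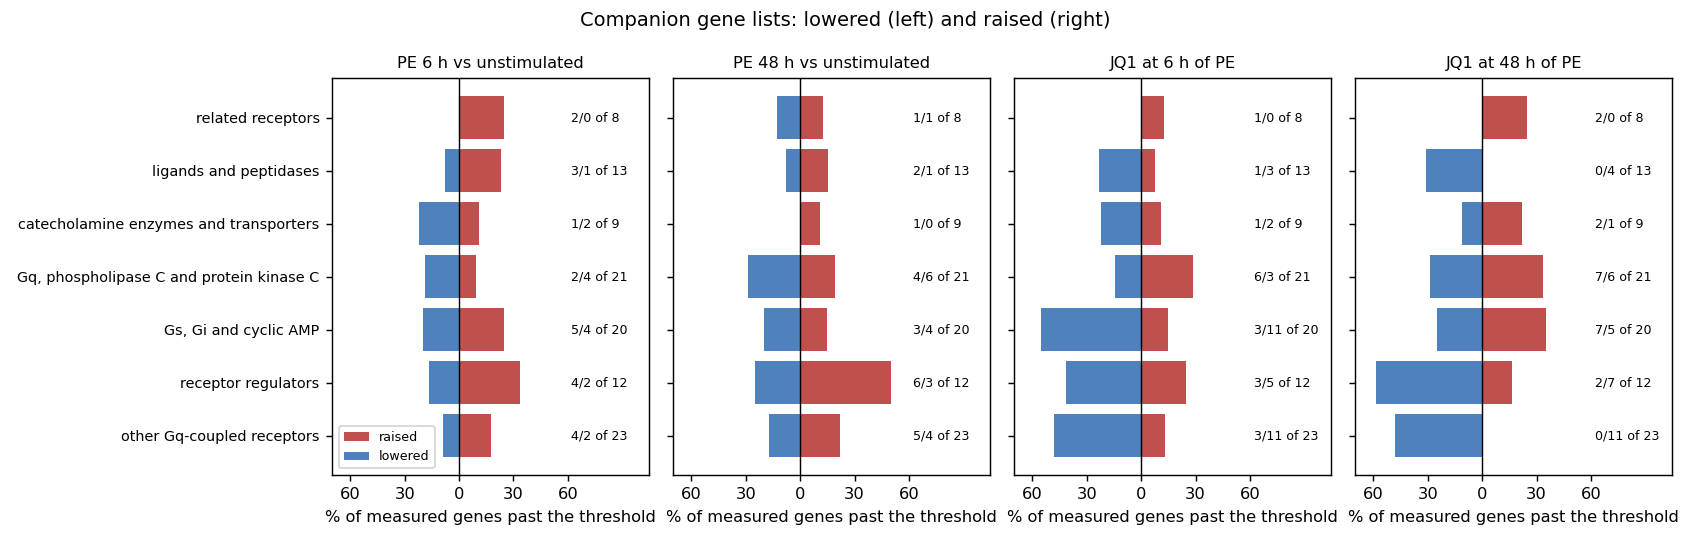
Percent of the measured genes of each companion list raised (red, right of 0) and lowered (blue, left of 0) at an adjusted p under 0.05, for PE at 6 h and 48 h and for JQ1 at 6 h and 48 h; the text beside each bar gives the number raised, the number lowered and the number measured. The other Gq-coupled receptors show 11 of 23 lowered with JQ1 at each time, with 3 and 0 raised.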

How the data were processed

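Biotin-labelled RNA was read on 14 Affymetrix rat arrays, as the labels' protocols describe. The authors deposited log2 values for 20223 probe sets, ranging from 2.71 to 14.7. Array medians of 7.28 to 7.43 point to normalization between arrays by the authors, an inference from the values, since how they were summarized and normalized is not given in the sources used here. Per the submitters' processing notes limma was used, with no role stated. No batch or scan time is given there, and 0 columns lacked a sample.

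The platform's probe table named 1 gene for 18510 probe sets, more than 1 for 305 and no gene for 1402, besides 6 controls. In the rat RefSeq table (GRCr8) 18461 matched by gene identifier and 1 by accession, and 48 kept the platform's symbol. The probe set with the highest mean was used where a gene had several (3797 genes), which can pick 1 transcript form, leaving 13184 genes. All arrays entered 1 model with a mean per group (lmFit and eBayes, limma 3.58.1, R 4.3.3, 9 residual degrees of freedom). Tests were two-sided, with p adjusted by Benjamini-Hochberg over all genes, with a threshold of 0.05. The median standard error (SE) of a log2 difference was 0.060 for 3 against 3 arrays and 0.068 with the group of 2, so the number of arrays limits the precision. Whether replicate arrays are separate cultures is not stated, and p-values then reflect only the spread of these arrays, possibly technical. Probe sets that were not the brightest were tested in a fit over 20217 probe sets, an alternative chosen after seeing the data.

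The receptor genes, lists and tests were chosen with earlier results of these data known. Named genes are all listed receptors and, from each companion list and comparison, up to 2 raised and 2 lowered with the smallest adjusted p past the threshold. The text gives these list genes for PE against unstimulated cells and JQ1 against DMSO, and of the other comparisons only Edn1. Genes most like a receptor were taken by correlation, as described with them. Other settings tried were repeated quantile normalization, median centring, the mean of probe sets, a filter on dim genes, an intensity trend, a robust prior, the replicate number as a block, only the compared groups, and each array left out. The fit was also run on simulated data with independent normal noise, which cannot test the normalization or whether arrays are separate cultures.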

Additional observations from a re-analysis of the deposited data

Results flagged for a closer look

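For Adra1b and for 28 of the 45 list genes named above for PE or JQ1, the JQ1 effect at 48 h differed from that at 6 h. This was limma's test of the difference itself, adjusted over 13184 genes, of which 38.8% passed. The list genes were named by small adjusted p in comparisons that share arrays with this test. Their count therefore cannot be read as an excess over that share. For Adra1b the effects were -1.27 at 6 h and -0.38 at 48 h, a difference of 0.88 ± 0.078 (SE, adjusted p 2.5e-06). For Ddc the effect was -0.48 at 6 h and 0.20 at 48 h, a difference of 0.68 ± 0.059 (2.2e-06), so that the sign changed.

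Lpar1 went from -1.22 at 6 h to 0.08 at 48 h (1.30 ± 0.094, adjusted p 4.3e-07) and Prkca from 1.58 to 0.40 (-1.18 ± 0.082, 3.0e-07). Rgs5 went from -0.39 to -1.56 (-1.17 ± 0.116, 6.2e-06), Pde4b from -1.34 to -0.40 (0.94 ± 0.084, 2.6e-06) and Prkce from -0.09 to 0.65 (0.73 ± 0.116, 2.8e-04). The fall became larger in Enpep (-0.70 ± 0.077, 1.5e-05), Mme (-0.64 ± 0.096, 1.7e-04), S1pr3 (-0.58 ± 0.093, 3.1e-04), Rgs3 (-0.40 ± 0.077, 0.00117), Trpc6 (-0.85 ± 0.172, 0.00162) and Rapgef4 (-0.89 ± 0.213, 0.0052). The rise became larger in Arrb2 (0.40 ± 0.091, 0.00372) and smaller in Grk5 (-0.21 ± 0.060, 0.0128).

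In the other listed genes the JQ1 effect was lower at 48 h than at 6 h by log2 differences of -0.69 in P2ry1 (adjusted p 0.00241), -0.53 in Rgs4 (5.8e-04), -0.43 in Itpr3 (0.00227), -0.43 in P2ry6 (0.03), -0.37 in Agt (0.0396), -0.34 in F2r (5.3e-04) and -0.22 in Trpc1 (0.0415). It was higher at 48 h by 0.44 in Adcy5 (0.00126), 0.42 in Adcy6 (1.5e-04), 0.37 in Plcb4 (7.3e-04), 0.30 in S1pr2 (0.0248), 0.29 in Rgs2 (0.014), 0.27 in Dgka (0.00363) and 0.25 in Mas1 (0.013). Some of these effects changed sign from 6 h to 48 h. They turned from positive to negative in P2ry1 (0.44 to -0.25), Agt (0.25 to -0.12) and F2r (0.18 to -0.16). The same held for Trpc1 (0.16 to -0.06) and Itpr3 (0.03 to -0.40). In Adcy6 (-0.17 to 0.25) and Adcy5 (-0.04 to 0.40) they turned from negative to positive.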

How the results depend on the processing

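Of 782 receptor results under other settings, 746 kept their side of the threshold, 12 lost a call, 24 gained one and 0 changed sign with a call on either side. Of the 746, 25 changed sign without passing in either setting, on Adra1a, Adrb1 and Bdkrb1. Lost calls concern Adrb1 with PE at 48 h (7) and Adra1b from 6 h to 48 h of PE (5), given above. The count of receptor genes whose JQ1 effect differed between times was 1, and became 3 under repeated quantile normalization and without dim genes, and 2 under median centring, an intensity trend and with only the compared groups. Leaving out 1 array gave 1 to 3 there. For JQ1 + PE at 48 h against unstimulated cells the count was 3, with 3 to 5 when 1 array was left out. The third Bdkrb2 probe set turned the sign from 6 h to 48 h of PE (0.0282, adjusted p 0.857) and for JQ1 at 6 h (0.0219, 0.865). Of 180 calls on named list genes, 178 held under repeated quantile normalization and 180 under centring.

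Replicate numbers did not pair the arrays: deviations from group means correlated at -0.27 to 0.18 (median -0.04, 26 pairs) for equal numbers and at -0.21 to 0.27 (median 0.02, 52 pairs) for different ones. With the replicate block, Adra1b from 6 h to 48 h of PE missed the threshold (-0.18, adjusted p 0.0564). Bdkrb2 passed for JQ1 + PE at 48 h against unstimulated cells (0.23, 0.0343) and for the difference of JQ1 effects (-0.39, 0.0302), where the count under the block became 2.

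Dim genes limit these results: Adra1a and Bdkrb1 were below the dim limit on every array and Adrb1 lay around it. The cause of these shifts was not tested.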
